A study of Rattus norvegicus with 2 samples.

Results

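Endothelin-1, nitric oxide and the natriuretic peptides are local and circulating signals through which the kidney adjusts its vessels and its salt excretion. The genes described here are 10 genes of these signals: the ligand gene Edn1, the processing enzyme gene Ece1, the receptor genes Ednra and Ednrb, the nitric oxide synthase genes Nos1 and Nos3, the natriuretic peptide processing gene Corin, the receptor genes Npr1 and Npr3, and the cyclic GMP phosphodiesterase gene Pde5a. A gene was taken when a probe set of the array carried its symbol and no other, and this held for 8 of the 10 genes, out of 22093 gene symbols in all. Ednra and Ednrb, which encode the endothelin receptors, had no probe set under their symbol or Entrez number in the annotation used here and were not analysed here. Each of the 8 genes had a single probe set, so that no choice among probe sets was needed.

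Kidney RNA of male Dahl salt-sensitive rats, an inbred model of hypertension on a high-salt diet, was compared between DSH+2.5%SF rats and DSH rats. Rats of both groups were obtained at 3 weeks of age and received 8% NaCl in the chow for 4 weeks, and DSH+2.5%SF rats also received, from 1 week after the start of that diet, 25 mg of sucroferric oxyhydroxide (SF), an iron-based binder of intestinal phosphate, per g of chow. Each group is represented by whole-kidney RNA pooled from 3 rats on 1 Clariom D rat array, which reads coding and noncoding transcripts in a single color. The sample labels give the pools as 2.5%SF and control, and the salt diet, the age and the pooling are taken from the methods of the study, so that both pools are from salt-loaded animals and no kidney on a normal-salt diet stands beside them. Because each group has 1 array, no replicate error and no test can be given, and an effect of SF cannot be told apart from differences among the pooled rats. In whole-kidney RNA, fewer cells of a type and less RNA per cell cannot be told apart either.

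Endothelin-1 is cut from its precursor by endothelin-converting enzyme and constricts vessels through the receptor that Ednra encodes, while the receptor encoded by Ednrb on collecting duct cells is known to promote sodium excretion. Nitric oxide relaxes smooth muscle by activating soluble guanylate cyclase, and the natriuretic peptides act through the receptor cyclase encoded by Npr1, so that both signals converge on cyclic GMP, which the phosphodiesterase encoded by Pde5a breaks down. The Dahl salt-sensitive strain is widely used to study how these signals handle a salt load.

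None of the 8 genes passed the criteria for a higher or a lower level in DSH+2.5%SF. Npr3, which encodes the clearance receptor that removes natriuretic peptides, came closest, at 1.48 times its DSH intensity. Ece1 and Pde5a lay at the other end, with DSH+2.5%SF over DSH ratios of 0.742 and 0.758. The other 5 genes had log2 ratios within 0.3 of 0, and Npr1 was listed at the same intensity in both pools. The criteria used the thresholds of the study's methods, a Z-score of at least 2.0 with a ratio of at least 1.5, or a Z-score of at most -2.0 with a ratio of at most 0.66. The Z-score is the log2 ratio minus its mean over all 68842 probe sets (0.03), divided by its SD over them (0.34). The methods give the thresholds and no formula for the Z-score, so that this formula was chosen here, and it makes 1.63-fold higher and 1.57-fold lower the effective limits. With it 1921 probe sets passed as higher and 1515 as lower, or 241 and 301 genes. The study reports other counts of targets at these thresholds, so that the calls here are not those of the study. Over all genes, 2.45% passed in either direction, 1.09% as higher and 1.36% as lower in DSH+2.5%SF, and over all probe sets 4.99% passed. A count of 0 among 8 genes is close to that background share.

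**Figure D1:**
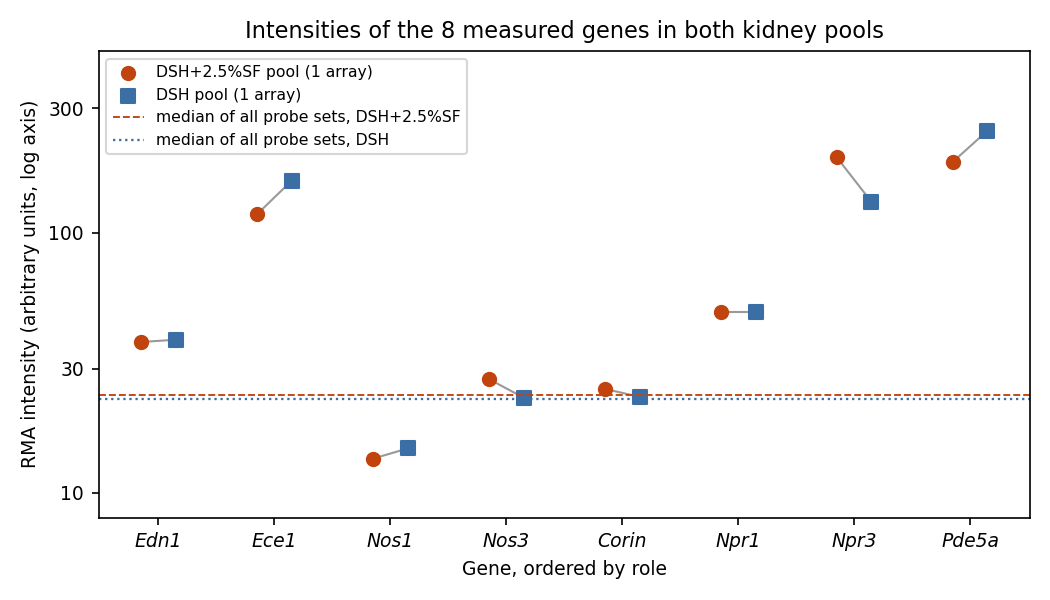
RMA intensities (log axis, arbitrary units) of the 8 measured genes, ordered by role, with the DSH+2.5%SF pool (circles) left of the DSH pool (squares), 1 array each, and the median of all probe sets of each pool as a horizontal line. Nos1 lies below both medians, Nos3 and Corin lie close above them, and Npr3 is the gene with the largest step upward in DSH+2.5%SF, at 195 against 131.

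The 8 genes differed in how bright their probe sets were, which bears on how far a ratio can be read. The array median, over all probe sets, was 23.7 in DSH+2.5%SF and 22.9 in DSH. Nos1 was the gene below it in both pools, and 35.8% of all genes were. Nos3 and Corin stood just above the median, at 1.15 and 1.06 times the median in DSH+2.5%SF and at 1.01 and 1.02 times the median in DSH. Edn1 and Npr1 lay between the median and the 75th percentile, and Npr3, Ece1 and Pde5a lay above that percentile in both pools. Npr3, Ece1 and Pde5a, the 3 brightest genes, also had the log2 ratios of largest absolute size, Npr3 upward and Ece1 and Pde5a downward. An intensity depends on the probes as well as on the transcript, so that the intensities of different genes are not compared as levels of RNA.

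Of the endothelin genes, the ligand gene had nearly the same intensity in both pools, and the enzyme gene had the lowest ratio of the set. Edn1 had an intensity of 37.9 in DSH+2.5%SF and 38.7 in DSH, a log2 ratio of -0.03. Ece1, which encodes the membrane protease that releases endothelin-1 from its inactive precursor, had an intensity of 117 in DSH+2.5%SF and 158 in DSH. Its log2 ratio was -0.43 and its Z-score -1.36, and 9.98% of all genes lay further from 0. The 1000 probe sets closest to it in brightness had an SD of the log2 ratio of 0.37, which put Ece1 at a Z-score of -1.15 among them.

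The other genes of the endothelin system showed no common direction. Of 13 further genes on a list of ligands, processing and degrading enzymes and signal transducers, 0 passed the criteria, 6 had a log2 ratio above 0 and 4 below, and the median was 0, as it was over all genes. Edn2, a further endothelin ligand gene, was listed at 18.7 in both pools, below the median. Edn3, the remaining ligand gene, had an intensity of 56.8 in DSH+2.5%SF and 74.2 in DSH, a log2 ratio of -0.38. Ece2, a relative of Ece1, was dim, at 18.7 in DSH+2.5%SF and 17.4 in DSH. Mme, which encodes neprilysin, a protease of the proximal tubule brush border that degrades endothelins and natriuretic peptides, had an intensity of 135202 in DSH+2.5%SF and 108658 in DSH, a log2 ratio of 0.32. The endothelin receptors signal through Gq proteins and phospholipase C beta, and the genes of this step went both ways. Plcb1 had a log2 ratio of 0.43, the highest of the list, and Plcb4 one of 0.16. The G protein genes Gna11 and Gnaq had log2 ratios of -0.39 and -0.38.

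The nitric oxide synthase genes were dim, and their ratios had opposite signs. Nos3, the synthase gene of endothelium, had an intensity of 27.3 in DSH+2.5%SF and 23.2 in DSH, a log2 ratio of 0.24 with a Z-score of 0.61. Nos1, the neuronal synthase gene, which in the kidney is known from the macula densa and the collecting duct, had an intensity of 13.5 in DSH+2.5%SF and 14.8 in DSH, a log2 ratio of -0.13 with a Z-score of -0.47. The inducible synthase gene Nos2 was also below the median, at 14.0 in DSH+2.5%SF and 12.7 in DSH on the brighter of its probe sets. At these intensities, near or below the middle of all probe sets, a difference of this size was smaller than the SD of the log2 ratio among probe sets of like brightness, 0.36 for Nos3 and 0.31 for Nos1.

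Around the synthases, log2 ratios below 0 outnumbered those above 0, and 0 genes passed the criteria. Of 22 measured genes that supply arginine, make the cofactor tetrahydrobiopterin, clear synthase inhibitors or bind the synthases, 15 were below 0 and 7 above, with a median of -0.14. Over all genes 47.5% were below 0 and the median was 0, but genes of middle brightness lay lower. Of 8101 genes with a mean log2 intensity of 5.5 to 9.5, a range picked after the data were seen, 58.9% were below 0 and the median was -0.07, beside 10 of the 13 list genes in that range. Dynll1, a dynein light chain that binds the neuronal synthase, had an intensity of 191 in DSH+2.5%SF and 254 in DSH, a log2 ratio of -0.41. Slc7a1, the gene of a cationic amino acid transporter that brings arginine into cells, had an intensity of 61.3 in DSH+2.5%SF and 79.2 in DSH, a log2 ratio of -0.37. Nostrin, whose protein moves endothelial synthase away from the membrane, had the highest log2 ratio of the list, 0.33. The genes of the arginine-making enzymes stood close to 0, with Ass1 at -0.12 and Asl at 0.05. Ddah1 and Agxt2 encode enzymes that clear the synthase inhibitor asymmetric dimethylarginine, and both are abundant in the proximal tubule. Their log2 ratios were 0.16 and -0.29.

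**Figure D2:**
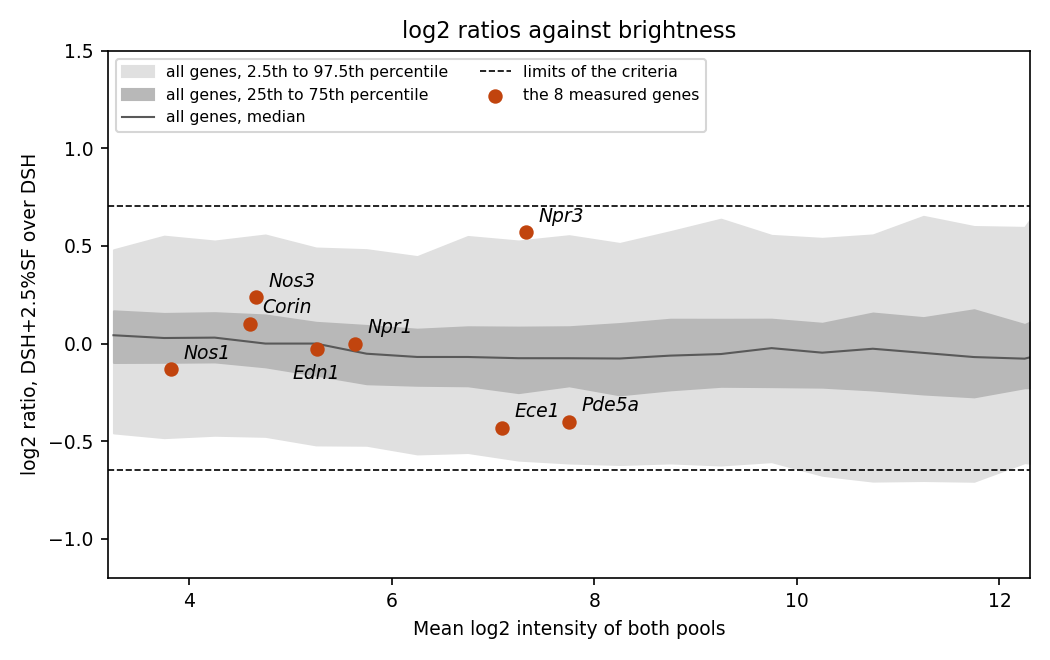
log2 ratio of DSH+2.5%SF over DSH against the mean log2 intensity of both pools for the 8 measured genes (circles), with the percentile bands and median of all genes in bins of 0.5 and the limits of the criteria as dashed lines. The 8 genes lie inside the limits, with Npr3 at 0.57 nearest to a limit.

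Among the natriuretic peptide genes, the clearance receptor gene had the largest ratio of the 8 genes and the signaling receptor gene had none. Npr3 had an intensity of 195 in DSH+2.5%SF and 131 in DSH. The log2 ratio was 0.57 and the Z-score 1.60, short of the limit of 0.71 on the log2 scale, and 4.37% of all genes lay further from 0. Set against the 1000 probe sets closest in brightness, its Z-score was 1.45. Npr1, the receptor guanylate cyclase gene through which atrial natriuretic peptide acts on tubule and vessel, was listed at 49.7 in both pools. Its value was identical in all deposited digits, as was that of 9.13% of all genes. The log2 ratios of Npr3 and Npr1 thus differed by 0.57 within the same pair of arrays, which shows unequal ratios and not that Npr1 RNA was the same in both pools. Corin, the gene of the protease that converts the precursor of atrial natriuretic peptide to its active form, had an intensity of 25.1 in DSH+2.5%SF and 23.3 in DSH, a log2 ratio of 0.10.

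The ligands of these receptors were dim in the kidney. Nppa, the gene of atrial natriuretic peptide, was listed at 18.1 in both pools, and Nppb, the gene of B-type natriuretic peptide, had an intensity of 12.5 in DSH+2.5%SF and 12.2 in DSH. Nppc, the gene of C-type natriuretic peptide, lay close above the median, at 26.3 in DSH+2.5%SF and 25.9 in DSH. Ostn encodes osteocrin, a peptide that binds the clearance receptor, and was below the median as well, at 19.76 in DSH+2.5%SF and 14.99 in DSH. Of 12 measured genes of this list other than Npr1, Npr3 and Corin, 0 passed the criteria, 7 were above 0 and 4 below, and the median log2 ratio was 0.03. Guca2b, the uroguanylin gene, which encodes a natriuretic peptide of the gut and kidney, had an intensity of 164 in DSH+2.5%SF and 125 in DSH, a log2 ratio of 0.39. Pcsk6, whose protease activates corin, had an intensity of 69.6 in DSH+2.5%SF and 92.4 in DSH, a log2 ratio of -0.41. Ide, the insulin-degrading enzyme gene, whose protein also cleaves natriuretic peptides, had a log2 ratio of -0.22 on its brighter probe set. Npr2, the receptor gene for C-type natriuretic peptide, had an intensity of 55.4 in DSH+2.5%SF and 60.7 in DSH, a log2 ratio of -0.13.

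Pde5a had the brightest probe set of the 8 genes in DSH. It encodes the phosphodiesterase that hydrolyses cyclic GMP in smooth muscle and is the target of sildenafil. Its intensity was 187 in DSH+2.5%SF and 246 in DSH, a log2 ratio of -0.40 with a Z-score of -1.27, and 12.1% of all genes lay further from 0. The other genes of cyclic GMP synthesis, action and breakdown lay mostly closer to 0. Of 19 such genes measured, 0 passed the criteria, 8 were above 0, 8 below and 3 listed at the same intensity in both pools, and the median was 0. Vasp, which encodes a cytoskeletal protein phosphorylated by the cyclic GMP-dependent kinase, had the lowest log2 ratio, -0.60, from an intensity of 30.6 in DSH+2.5%SF and 46.4 in DSH, with a Z-score of -1.86. The subunit genes of soluble guanylate cyclase, the enzyme that nitric oxide activates, did not share a direction. Gucy1a1 was listed at 190 in both pools, and Gucy1a2 had an intensity of 128 in DSH+2.5%SF and 106 in DSH. Gucy1b1 had an intensity of 231 in DSH+2.5%SF and 246 in DSH, and Gucy1b2 one of 554 in DSH+2.5%SF and 617 in DSH. The kinase genes Prkg1 and Prkg2 had log2 ratios of 0.15 and 0.09. Of the other phosphodiesterase genes, Pde1b had the highest log2 ratio, 0.27, and Pde10a the lowest, -0.24 on the brighter of its probe sets. The dimmer probe set of Pde10a had a log2 ratio of 0.16. Pde2a and Pde1c were listed at 148 and 209 in both pools.

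**Figure D3:**
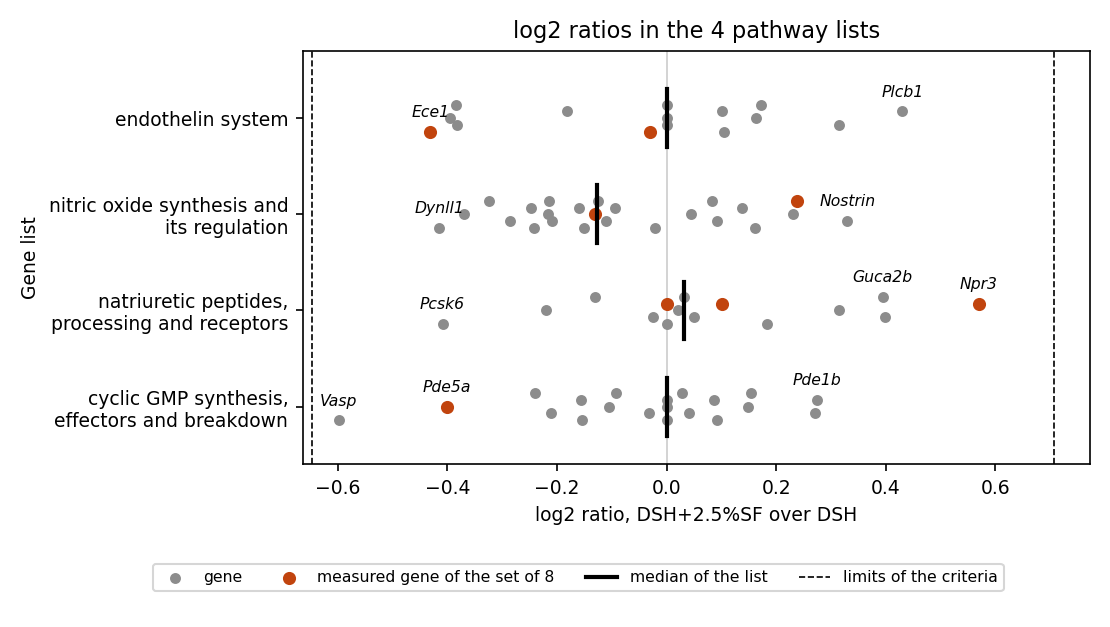
log2 ratio of DSH+2.5%SF over DSH of every measured gene in the 4 pathway lists (1 point per gene, vertical position within a list without meaning), with list medians as bars and the limits of the criteria as dashed lines. No point passes a limit, and Npr3 at 0.57 and Vasp at -0.60 are the outermost.

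Over the 4 lists together, 65 genes other than the 8 were measured, of 67 listed, and 0 of them passed the criteria, beside 2.45% of all genes. The median log2 ratio of the 8 genes was -0.01, with 3 above 0 and 4 below, and the median over all genes was 0. The SD of the log2 ratio was 0.33 across the 8 genes, 0.22 across the 65 and 0.27 across all genes.

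The pools were also compared in markers of the cells in which these genes are known to be expressed. The proximal tubule genes Lrp2, Slc34a1 and Cubn and the thick ascending limb gene Umod, which define the kidney, were above the 96th percentile of all probe sets in both pools, while some rarer cells' markers, such as Pappa2 at 14.0 in both pools, were below the median. The measured markers of skeletal and heart muscle and of the adrenal gland were at 38.5 or below. Of 6 adrenal markers 3 were measured, since Cyp11b1, Cyp11b2 and Hsd3b1 had no probe set of their own, and the heart marker Myh6 had none. Of 5 fat markers Cidec was at 199 in DSH+2.5%SF and 200 in DSH and Adipoq at 130 in DSH+2.5%SF and 91.9 in DSH. The other 3 fat markers were at 48.6 or below, and the list had a median log2 ratio of -0.07, with 4 of 5 below 0. Of 7 measured podocyte markers, cells on which the clearance receptor is known, 6 had log2 ratios above 0, with Podxl at 0.60 and a median of 0.15, and their summed intensity was 35757 in DSH+2.5%SF and 31048 in DSH. Cd2ap, which other kidney cells express as well, made up 31252 of that sum in DSH+2.5%SF and 27742 in DSH. None of them passed the criteria, and their part in the Npr3 ratio was not tested. Of 8 vascular smooth muscle markers 7 were below 0, with a median of -0.16 and a summed intensity of 3277 in DSH+2.5%SF and 4391 in DSH. Acta2 made up 1995 of that sum in DSH+2.5%SF and 2663 in DSH. Tagln, the transgelin gene, was 1.72-fold lower by the criteria, while Myh11, Smtn, Cnn1 and Lmod1 had log2 ratios of -0.09 to 0.02. Some smooth muscle markers lie in the range of mean log2 intensity of 5.5 to 9.5, where 58.9% of all genes were below 0, with a median of -0.07. The part of the smooth muscle markers in the Pde5a ratio was not tested.

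Endothelial markers had a median of -0.10, with 10 of 14 below 0, beside the positive log2 ratio of Nos3 and the negative one of Ece1. Their summed intensity was 7938 in DSH+2.5%SF and 8517 in DSH. Some of these markers lie in the range of mean log2 intensity of 5.5 to 9.5. In that range 58.9% of all genes were below 0, with a median of -0.07. The markers that passed the criteria were Ehd3, known from glomerular endothelium, at 336 in DSH+2.5%SF and 165 in DSH, and the junction gene Esam at 41.0 in DSH+2.5%SF and 71.8 in DSH. The part of these cells in the Nos3 and Ece1 ratios was not tested. The collecting duct is a major renal source of endothelin-1, and its principal cell markers had a median of -0.43, with 7 of 8 below 0. Their summed intensity was 4523 in DSH+2.5%SF and 5468 in DSH, of which Aqp2 made up 2347 in DSH+2.5%SF and 2984 in DSH. The water channel gene Aqp3 was lower by the criteria. The 5 inner medullary markers had a median of -0.48, with 4 below 0, a summed intensity of 6800 in DSH+2.5%SF and 9474 in DSH, and Akr1b1, the aldose reductase gene, at a log2 ratio of -1.03. Of that sum, Slc5a3 made up 6608 in DSH+2.5%SF and 9169 in DSH. Edn1 itself stood at -0.03 beside them. The 7 markers of macula densa and thick ascending limb, the first of which is a known site of Nos1, had a median of 0. None passed the criteria, and their summed intensity was 643785 in DSH+2.5%SF and 649029 in DSH, of which Umod made up 469762 in both pools. In this list 3 genes were above 0, 2 below, Ptgs2 at -0.27 among them, and 2 listed at the same intensity in both pools. The list mixes both cell types, so that its median and sum do not read the macula densa alone. Of the remaining markers, the pericyte gene Rgs5 was at 847 in DSH+2.5%SF and 1523 in DSH, lower by the criteria. It was the only one of 7 measured mesangium and pericyte markers that passed. Their median was -0.08, with 4 below 0, 1 above and 2 listed at the same intensity in both pools. The water channel gene Aqp1 was at 17943 in DSH+2.5%SF and 31005 in DSH, also lower by the criteria. The globin gene Hbb was lower by the criteria as well, at 48.6 in DSH+2.5%SF and 79.0 in DSH. No other red cell marker passed. Hba-a1 and Alas2 were listed at 184160 and 56.6 in both pools, and Slc4a1 had a log2 ratio of -0.47. Among the 7 proximal tubule markers Aqp1 was the only one that passed, 4 were above 0, and the list median was 0.01. Calb1, the calbindin gene of the distal tubule, was at 27005 in DSH+2.5%SF and 10832 in DSH, higher by the criteria, while the other 3 distal convoluted tubule markers had log2 ratios of -0.07 to 0.15. With the Z-score set against probe sets of like brightness, Tagln (-1.90), Rgs5 (-1.99), Aqp1 (-1.42) and Hbb (-1.94) no longer passed. None of 5 macrophage markers passed, with a median of -0.06, 3 below 0 and 2 above. Adgre1 and Csf1r had log2 ratios of -0.51 and -0.45, Lyz2 one of -0.06, and Cd68 and the dim Cd163 had 0.11 and 0.09.

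**Figure D4:**
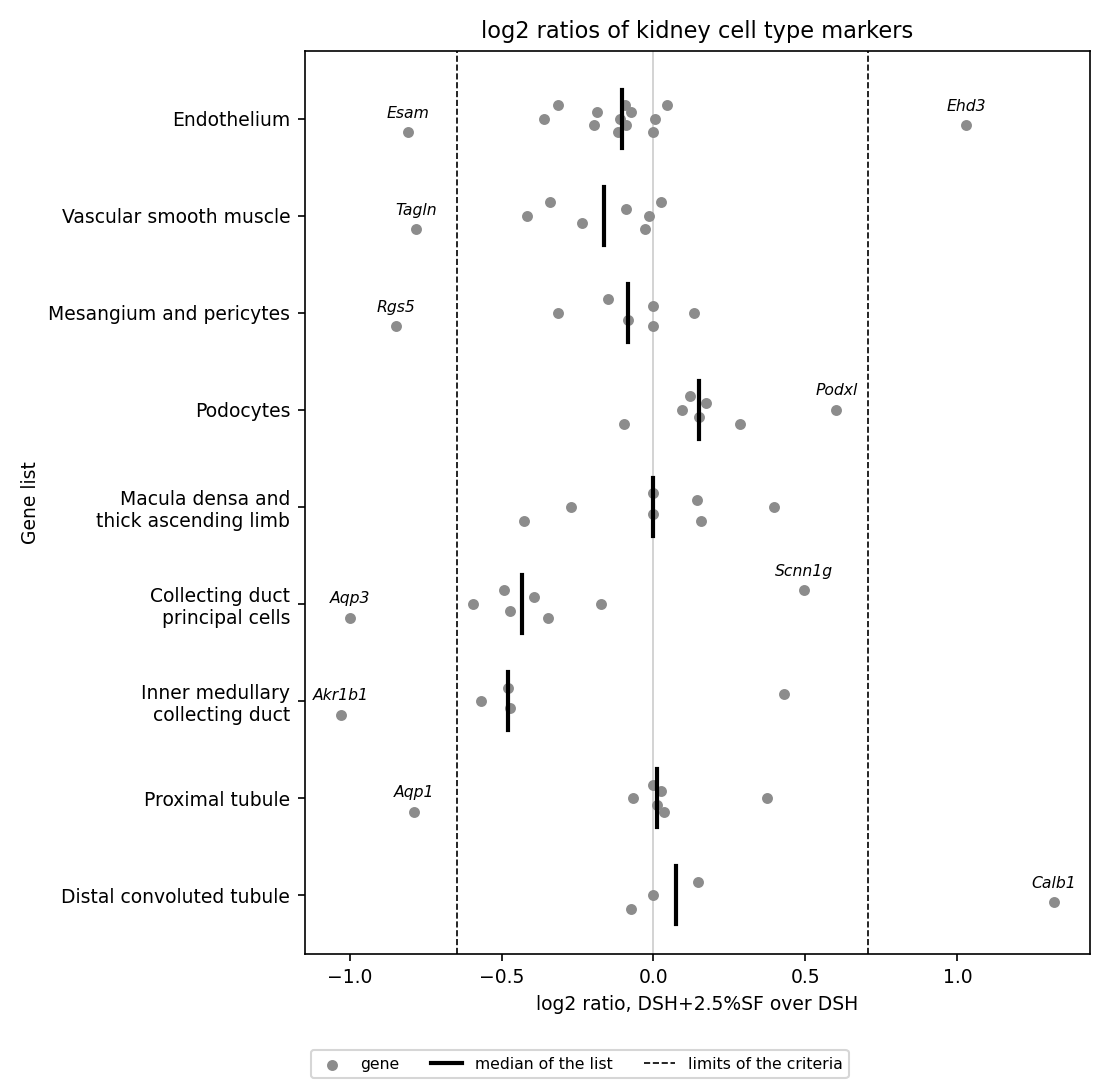
log2 ratio of DSH+2.5%SF over DSH of every measured marker in the 9 kidney cell type lists (1 point per gene, vertical position within a list without meaning), with list medians as bars and the limits of the criteria as dashed lines. The collecting duct lists have the lowest medians, -0.43 and -0.48, and the podocyte list the highest, 0.15.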

How the data were processed

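The authors deposited intensities on a linear scale, made with RMA, which the submitters' processing notes list together with Affymetrix Expression Console 1.4.1. RMA subtracts background, brings both arrays to a common distribution and condenses the probes of a probe set to 1 value, and the sorted log2 values of the 2 arrays differed by at most 0.13. The genome build of the array design was not given in the sources used here, and coordinates are left out. Log2 values, log2 ratios of DSH+2.5%SF over DSH and Z-scores were computed for all 68842 probe sets with Python 3.11.15, numpy 2.4.6, pandas 2.3.3 and statsmodels 0.14.6. The platform annotation gives 23446 probe sets a single gene symbol, 505 several, and a gene was represented by the brightest of its own probe sets. The members and gene lists were chosen with earlier results of these data known. Named pathway genes are the 2 highest and 2 lowest log2 ratios of each list among genes at or above the median in at least 1 pool, and others named for their role. Markers were named where they passed, and others after their values were seen. The calls were tested on simulated data. Having 1 array in each group limits the precision, and no SD or p-value over samples could be had. Alternatives in the Z-score, the ratio limits, the scaling, the filter on dim probe sets and the choice of probe set were tried.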

Additional observations from a re-analysis of the deposited data

How the results depend on the processing

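No paired analysis was possible because each group has 1 array and no test was run. None of the 8 genes, and none of the 65 others of the pathway lists, passed under any of the alternatives tried: a Z-score set against the 1000 probe sets closest in brightness, one over probe sets with a single gene symbol, the ratio criterion alone, the stricter ratio limits of 2 and 0.5, median centring, quantile normalization, a subtracted loess trend, averaging a gene's probe sets, and dim probe sets left out. Because none passed the ratio criterion alone, the Z-score variants, the stricter limits and the filter on dim probe sets, which kept the log2 ratios, could pass none. Median centring left the Z-scores unchanged and could pass none either. Only quantile normalization, the loess trend and, for genes with several probe sets, averaging could have given another outcome. Over all genes the alternatives passed 0.475% to 3.81%, beside 2.45%. The ratio criterion alone passed 841 genes, the filter on dim probe sets 253 and the stricter ratio 105, beside 542. The log2 ratio of Npr3 ranged from 0.52 to 0.59, that of Ece1 from -0.48 to -0.41 and that of Pde5a from -0.45 to -0.37. That of Nos3 ranged from 0.19 to 0.24, those of Edn1, Nos1 and Corin kept their sign, and that of Npr1 ranged from -0.05 to 0. The median of the 8 ranged from -0.06 to 0, and that of the natriuretic list from -0.02 to 0.03, so its sign depends on the scaling. The count of genes below the median in both pools does depend on its reference. It was 1 against all probe sets, 3 against the median of probe sets with a single gene symbol (Nos1, Nos3 and Corin) and 5 against the 75th percentile of all probe sets, where Edn1 and Npr1 join them. With 1 array per group, leaving out a replicate was not possible.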

Other observations

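Log2 ratios recurred among probe sets more often than continuous values would. At 6 decimals, 30471 of 68842 probe sets (44.3%) shared their log2 ratio with another, 25333 of them at a value other than 0. Npr1 shared its ratio of 0 with 5137 other probe sets, Nos1 its ratio of -0.13 with 44, Npr2 among them, Nos3 its ratio of 0.24 with 40 and Edn1 its ratio with 1. The ratios of Npr3, Ece1, Pde5a and Corin were shared with no other probe set. The cause of the recurrence was not tested.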
